A study of Mus musculus with 8 samples.

Results

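Superoxide and peroxide removal is described here through 10 genes of mouse quadriceps femoris: the superoxide dismutases Sod1, Sod2 and Sod3, catalase (Cat), the peroxiredoxins Prdx3 and Prdx5, the glutaredoxins Glrx and Glrx2, and the glutathione peroxidases Gpx1 and Gpx4. They were taken by gene symbol from a table of 14012 genes, all 10 were found, and they were divided by where the enzyme works into 4 mitochondrial members (Sod2, Prdx3, Prdx5 and Glrx2) and 6 others. The study removed Grpel1, the nucleotide exchange factor of the mitochondrial heat shock protein mtHSP70, from skeletal muscle. Messenger RNA was sequenced from 4 knockout mice, labelled KO (Grpel1 smk -/-), and 4 controls, labelled WT (Grpel1 flox/flox), with 1 library for each mouse. The floxed allele was shared by both groups, and per the study's methods the knockouts carried a tamoxifen-inducible Cre under the human skeletal actin promoter, which acts in muscle fibres and not in the vessels, fat or connective tissue of the same sample. Tamoxifen was begun at 5 weeks of age and muscle was taken at a weight-loss end point. The study used males and gives that end point as reached within 5 weeks of the induction, without the age of each mouse sequenced. It describes untreated floxed littermates, floxed mice with Cre but no tamoxifen, and floxed mice given tamoxifen without Cre. It does not say which of these the sequenced controls were, so the groups may also differ in Cre or in tamoxifen.

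Superoxide escapes from the respiratory chain and from oxidases in membranes, and superoxide dismutases turn it into hydrogen peroxide: SOD2 in the mitochondrial matrix, SOD1 in the cytosol and the space between the mitochondrial membranes, and SOD3 outside the cell. Catalase in peroxisomes, the peroxiredoxins and the glutathione peroxidases then reduce the peroxide, the peroxiredoxins with electrons from thioredoxin and the glutathione peroxidases with glutathione. Glutaredoxins remove glutathione from protein thiols, GLRX mostly in the cytosol and GLRX2 mostly in mitochondria, and skeletal muscle, with its high and changing oxygen use, holds all of these systems.

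Libraries held 16017565 to 18813042 assigned reads in controls and 16424608 to 20361144 in knockouts. Levels are given as CPM, a gene's reads relative to the scaled read total of its library, without correction for gene length. The Grpel1 count checked nothing about the labels: 64.1 to 71.2 CPM in controls and 59.9 to 71.9 in knockouts overlapped, with a log2 fold change of -0.07 (SE 0.08, edgeR adjusted p = 0.49), and the count covers the whole gene rather than the deleted part. For the protein, the study reported a reduced but not absent GRPEL1 level in knockout quadriceps by immunoblot, and reduced immunostaining. The muscle label held, since each of 10 fibre genes was read in every library, but their summed level was 200508 to 256025 CPM in controls and 69100 to 98148 CPM in knockouts, with 8 of the 10 lower and 1 higher. Among markers of other cells, none at 0 in any library, the endothelial sum (333.8 to 476.7 against 233.9 to 268.3 CPM; 7 of 8 lower) and the fibroblast sum (1790 to 2643 against 707 to 1085 CPM; 5 of 8 lower) were below the controls, and a sum of 3 neutrophil genes was above them (0.46 to 4.20 against 17.3 to 37.8 CPM), carried by S100a8, the only 1 of the 3 that passed. The smooth muscle sum (246.1 to 356.2 against 185.6 to 248.1 CPM; 5 of 6 lower), macrophage sum (78.7 to 211.7 against 177.1 to 332.7 CPM; 1 of 10 higher), erythroid sum (41.1 to 101.8 against 8.61 to 96.7 CPM; 0 of 5 called) and adipocyte sum (254.5 to 1813 against 783.7 to 2974 CPM; 0 of 9 called) overlapped. These sums also depend on the library scaling given below, and they were not recomputed with library totals alone. Which sums overlap can therefore differ under that scaling. The part of the marker differences in the members' values was not tested, except that a fit with the adipocyte genes as a covariate is given below. In whole muscle, fewer cells of a type and less RNA per cell cannot be told apart.

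Of the 10 members, 6 passed the test against 44.7% of all genes. They were Sod2, Prdx3, Prdx5, Glrx2 and Glrx on the lower side and Gpx4 on the higher side, while Sod1, Sod3, Cat and Gpx1 did not pass. Thus 5 of 10 members were lower in knockouts beside 21.1% of all genes, and 1 of 10 was higher beside 23.6% of all genes. The CPM values of the groups did not overlap for the same 6 members, beside 53.4% of all genes. The test was edgeR's quasi-likelihood test with trimmed-mean (TMM) scaling of the libraries and a Benjamini-Hochberg adjusted p under 0.01 over all genes. The study itself reported Cat as higher and Sod2, Prdx3, Prdx5 and glutaredoxins as lower in these libraries. The list is thus not independent evidence of a direction. The TMM factors were 0.75 to 0.84 in controls and 1.19 to 1.33 in knockouts; scaled by library totals alone, the median log2 change of all genes moved up by 0.67, from 0.07 to 0.73, and the signs of Prdx3, Prdx5 and Glrx2 turned.

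**Figure D1:**
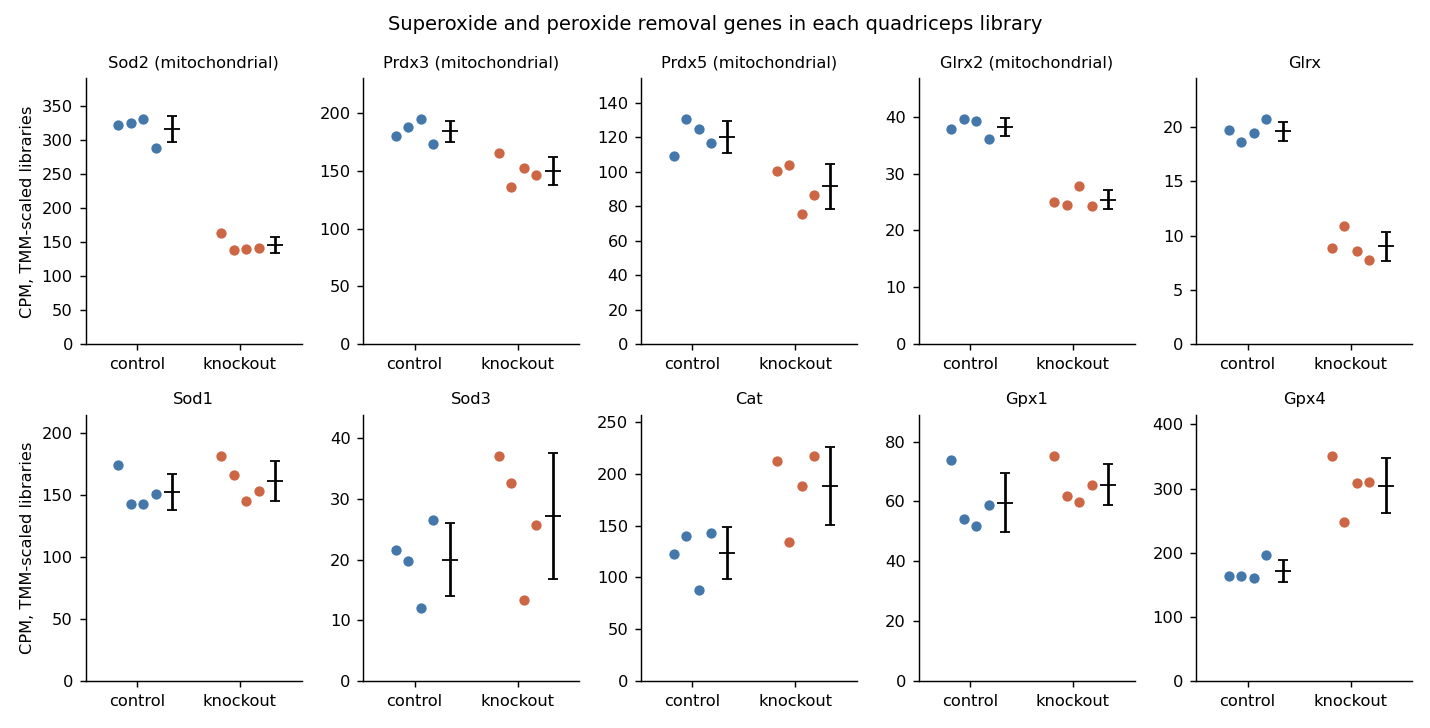
CPM of each member (vertical axes from 0) in the 4 control and 4 knockout libraries; points are libraries in replicate order and the bar beside them is the mean with its SD. Sod2 lay between 289 and 331 in controls and between 139 and 164 in knockouts, and Gpx4 between 160 and 197 in controls and between 248 and 351 in knockouts.

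Sod2, the matrix superoxide dismutase that uses manganese, had 321.9, 325.7, 331.4 and 288.7 CPM in control replicates 1 to 4 and 164.2, 139.3, 139.9 and 141.7 CPM in the knockouts. Every knockout was far below every control, with knockout replicate 1 above the other three. The fold change was 0.46, a log2 change of -1.12 (SE 0.08, edgeR adjusted p = 2.32e-06), at percentile 6.92 of all genes tested. The gene lies at chr17:13007839-13018119 on the plus strand (GRCm38), and it was called lower in all 16 alternative analyses. GENCODE M21 extends the gene to position 13040063, beyond the end of the deposited gene model.

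Sod1, the copper and zinc enzyme of the cytosol (chr16:90220742-90226324, plus strand), had 173.9, 142.8, 142.4 and 150.9 CPM in controls and 181.8, 165.9, 145.0 and 153.3 CPM in knockouts. The groups overlapped throughout, and replicate 1 was the highest library in each. Its log2 change was 0.08 (SE 0.09, 95% interval -0.13 to 0.29, edgeR adjusted p = 0.47). With library totals alone it was 0.75 (edgeR adjusted p = 8.68e-05), which is 0.02 relative to the median gene under either scaling. Sod1 overlaps the gene Scaf4 on the opposite strand, and whether the counting used strand is not given in the sources used here.

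Sod3, the secreted dismutase (chr5:52363804-52369738, plus strand), was among the lowest members, with 21.6, 19.8, 12.0 and 26.5 CPM in controls and 37.1, 32.6, 13.3 and 25.7 CPM in knockouts. These rest on 167 to 420 reads in controls and 323 to 890 reads in knockouts. Both groups spread widely, and the lowest library was replicate 3 in each. The log2 change of 0.44 (SE 0.31, 95% interval -0.24 to 1.13, edgeR adjusted p = 0.24) was within that spread. Replicate 3 was also the lowest of its group in summed adipocyte markers, at 254.5 CPM in the control and 783.7 CPM in the knockout; with those markers as a covariate the log2 change of Sod3 was 0.12 (edgeR adjusted p = 0.68).

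The promoters of Sod2 and Sod1, the dismutases inside and outside the matrix, are shown with those of Cat and Glrx, members outside the mitochondrial class whose fitted changes were positive and negative. Each is 300 bases of GRCm38.p6 from RefSeq, 250 before the start and 50 from it on, read on the gene's strand, and capitals mark matches to any of 6 searched motifs. They are Sod2 at chr17:13007589-13007888 (plus strand), Sod1 at chr16:90220512-90220811 (plus), Cat at chr2:103485104-103485403 (minus) and Glrx at chr13:75839636-75839935 (plus).
Sod2: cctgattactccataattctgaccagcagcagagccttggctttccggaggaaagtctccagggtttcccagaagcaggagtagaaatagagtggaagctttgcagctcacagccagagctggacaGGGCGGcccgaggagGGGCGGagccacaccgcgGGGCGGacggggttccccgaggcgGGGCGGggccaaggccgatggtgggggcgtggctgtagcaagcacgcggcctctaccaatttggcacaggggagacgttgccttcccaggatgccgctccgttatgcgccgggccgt
Sod1: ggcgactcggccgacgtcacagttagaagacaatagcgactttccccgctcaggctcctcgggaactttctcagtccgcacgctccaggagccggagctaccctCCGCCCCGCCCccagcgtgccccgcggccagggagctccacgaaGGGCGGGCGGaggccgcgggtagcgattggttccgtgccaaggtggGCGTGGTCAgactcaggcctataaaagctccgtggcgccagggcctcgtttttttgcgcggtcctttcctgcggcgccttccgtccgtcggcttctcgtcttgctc
Cat: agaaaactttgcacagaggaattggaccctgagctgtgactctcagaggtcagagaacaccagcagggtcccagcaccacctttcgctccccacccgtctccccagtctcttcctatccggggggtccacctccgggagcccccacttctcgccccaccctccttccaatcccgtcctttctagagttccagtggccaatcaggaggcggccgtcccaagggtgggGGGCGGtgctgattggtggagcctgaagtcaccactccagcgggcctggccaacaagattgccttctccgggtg
Glrx: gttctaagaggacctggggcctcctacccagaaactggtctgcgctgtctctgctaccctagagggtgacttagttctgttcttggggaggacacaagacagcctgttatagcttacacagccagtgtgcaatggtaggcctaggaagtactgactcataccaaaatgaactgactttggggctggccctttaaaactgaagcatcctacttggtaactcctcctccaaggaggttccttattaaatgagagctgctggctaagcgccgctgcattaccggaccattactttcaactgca

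The GC box GGGCGG, to which SP1-type factors bind, was the motif most often found. The Sod2 window held 4 copies on the gene's strand between 124 and 62 bases before the start. Sod1 held 4 as well, in overlapping pairs on each strand, and Cat held 1. Glrx held none of the 6 motifs. Whether any match bears on the changes in level was not tested. Of the 9 members with a promoter in the table (Sod3 had none), 6 held a GC box, against 35.7% of 32851 promoters of the same length; the other three were Glrx, Glrx2 and Gpx4.

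The remaining motifs were rare among the members, searched on both strands in all 9 windows. The core of the antioxidant response element, TGACNNNGC, bound by NRF2, was in Sod1 on the minus strand, and in 12.4% of all promoters. The forkhead element GTAAACA was in Glrx2, 38 to 32 bases before the start, and in 3.65% of all promoters. No member window held the ATF4 and C/EBP element TGATGNAA (3.97% of all promoters), the estrogen-related receptor half-site AAGGTCA (4.72%) or the NRF1 core GCGCANGCG (6.25%). These are matches of letters in one window for each gene, and Glrx, Glrx2 and Gpx4 have more than a single listed start.

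Cat, the peroxisomal enzyme that splits hydrogen peroxide without a reductant (chr2:103453904-103485153, minus strand), had 122.9, 140.2, 87.8 and 143.3 CPM in controls and 212.0, 134.5, 188.6 and 217.5 CPM in knockouts. In knockouts 3 of 4 libraries were above all controls, and replicate 2 lay inside the control range. The log2 change was 0.61 (SE 0.18, 95% interval 0.20 to 1.01, edgeR adjusted p = 0.0153), a fold of 1.52 that missed the threshold. Without knockout replicate 2 it was 0.72 (edgeR adjusted p = 0.0050), and DESeq2 gave 0.56 (adjusted p = 0.0059), both past the threshold. With library totals alone it was 1.26 (edgeR adjusted p = 0.000247), also past it. Beside the adipocyte markers, control replicate 3 was lowest in both, and with those markers as a covariate the log2 change was 0.47 (edgeR adjusted p = 0.0276).

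**Figure D2:**
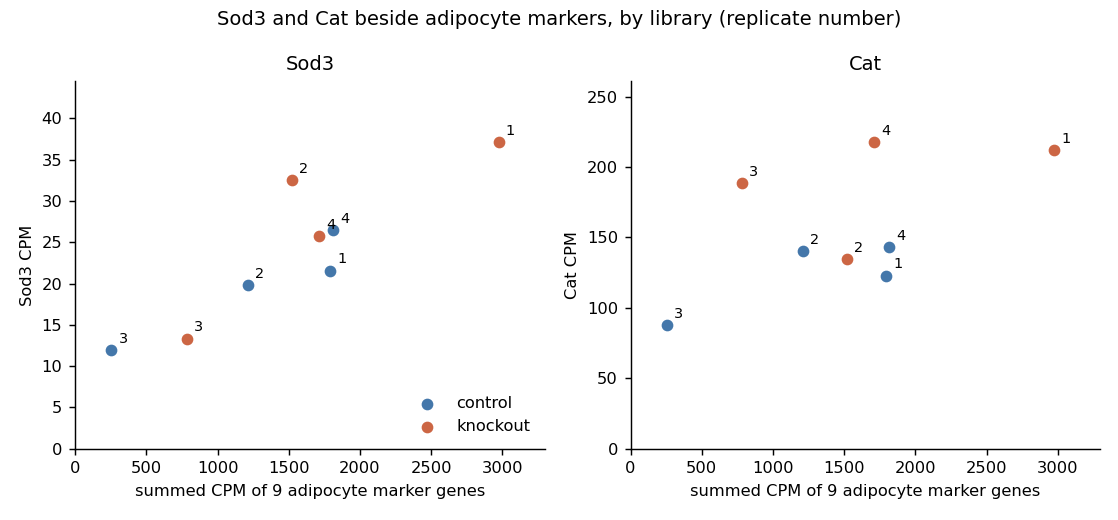
CPM of Sod3 (left) and Cat (right) against the summed CPM of 9 adipocyte marker genes, 1 point per library with its replicate number and both axes linear from 0. The lowest Sod3 in each group, 12.0 and 13.3 CPM, was in replicate 3, which was also lowest in the markers (254.5 and 783.7 CPM), while Cat in knockout replicate 2 lay among the controls.

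Prdx3, the peroxiredoxin found only in mitochondria (chr19:60864066-60874538, minus strand), had 180.1, 187.9, 194.7 and 173.3 CPM in controls and 165.0, 135.8, 152.7 and 146.1 CPM in knockouts. All knockouts were below all controls, but knockout replicate 1 was close to the lowest control. The log2 change of -0.30 (SE 0.08, edgeR adjusted p = 0.0075) was the smallest of the called members, and it was 0.37 (edgeR adjusted p = 0.00033) with library totals alone, which is -0.36 relative to the median gene under either scaling. It no longer passed without control replicate 1, 2 or 3 or without knockout replicate 2 or 4 (edgeR adjusted p 0.0114 to 0.0234), nor with the replicate number as a block (0.0118) or the adipocyte markers as a covariate (0.0217).

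Prdx5, an atypical peroxiredoxin of mitochondria that also occurs in peroxisomes and cytosol (chr19:6906819-6909645, minus strand), had 109.1, 130.5, 124.5 and 116.6 CPM in controls. The knockouts had 100.2, 103.9, 75.6 and 86.7 CPM, all below the lowest control, with replicates 1 and 2 close to it. Its log2 change was -0.39 (SE 0.11, edgeR adjusted p = 0.0095), and 0.28 (edgeR adjusted p = 0.064) with library totals alone, or -0.46 and -0.45 relative to the median gene. It missed the threshold without control replicate 2, 3 or 4 or without knockout replicate 3 or 4 (edgeR adjusted p 0.0102 to 0.0308), and with the adipocyte covariate (0.0191) or upper-quartile factors (0.0154).

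Glrx2, the mitochondrial glutaredoxin (chr1:143739349-143749678, plus strand), had 37.9, 39.6, 39.2 and 36.1 CPM in controls and 24.98, 24.4, 27.9 and 24.3 CPM in knockouts. Its replicates were among the closest of the members, and the groups were clearly apart. The log2 change was -0.59 (SE 0.07, edgeR adjusted p = 5.30e-05), and 0.08 (edgeR adjusted p = 0.27) with library totals alone, which is -0.65 and -0.66 relative to the median gene. GENCODE M21 lists 13 transcripts for the gene, some of which lead to forms outside mitochondria, and the count does not separate those it covers. GENCODE M21 also starts the gene at position 143716338, before the start of the deposited gene model, so first exons there can be missed.

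Glrx, the cytosolic glutaredoxin (chr13:75839886-75850151, plus strand), had 19.7, 18.6, 19.4 and 20.7 CPM in controls and 8.84, 10.9, 8.55 and 7.75 CPM in knockouts. The highest knockout was well under the lowest control, on 244 to 329 reads in controls and 195 to 237 reads in knockouts. Its log2 change of -1.12 (SE 0.11, edgeR adjusted p = 1.52e-05), a fold of 0.46, equalled that of Sod2 to 2 decimals. Glrx was thus the member outside the mitochondrial class that fell, and, like Sod2, it was called lower under library totals alone (-0.46, edgeR adjusted p = 0.0094).

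Gpx1, the abundant selenium-containing peroxidase of cytosol and mitochondria (chr9:108339080-108340342, plus strand), had 73.8, 54.1, 51.9 and 58.8 CPM in controls and 75.3, 61.7, 59.8 and 65.5 CPM in knockouts. The groups overlapped, with replicate 1 highest in each. The log2 change was 0.14 (SE 0.12, 95% interval -0.13 to 0.40, edgeR adjusted p = 0.34). With library totals alone it was 0.81 (edgeR adjusted p = 0.000205), which is 0.07 relative to the median gene under either scaling.

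Gpx4, the selenium-containing peroxidase that reduces lipid hydroperoxides inside membranes (chr10:80047166-80056439, plus strand), had 164.3, 163.6, 160.3 and 196.5 CPM in controls and 351.3, 247.6, 309.3 and 310.1 CPM in knockouts. Every knockout was above every control, although knockout replicate 2 and control replicate 4 came nearest each other. The fold change was 1.78, a log2 change of 0.83 (SE 0.11, edgeR adjusted p = 0.000141), and it was called higher in all 16 alternative analyses. Cytosolic, mitochondrial and nuclear forms come from this gene, and the count does not separate them. A processed pseudogene, Gpx4-ps2, shares sequence with it, and the authors dropped reads that mapped to several places.

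**Figure D3:**
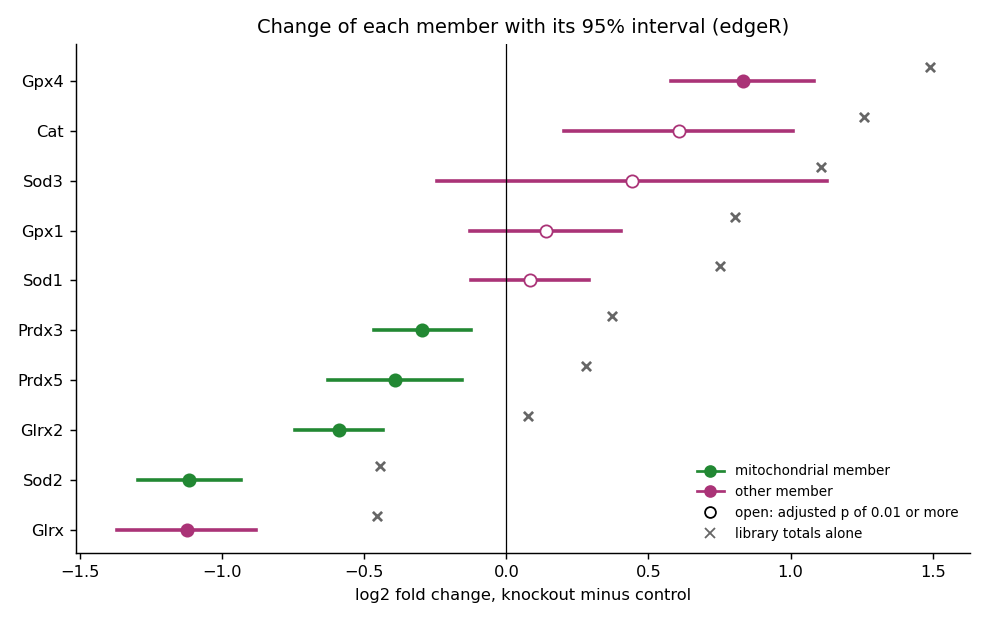
Log2 fold change (knockout minus control) of each member with its 95% interval from edgeR; filled points have an adjusted p under 0.01, open points do not, colours mark the mitochondrial and the other members, and crosses give the value with library totals alone. The 4 mitochondrial members and Glrx lay between -1.12 and -0.30 with TMM scaling, and the crosses of Prdx3, Prdx5 and Glrx2 lay above 0.

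Grouped by place of work, all 4 mitochondrial members were lower with TMM scaling (3 of the 4 turned sign with library totals alone), beside 21.1% of all genes. Of the 6 others, 1 was lower, 1 was higher and 4 did not pass, beside 21.1% of all genes lower and 23.6% higher. The median log2 change was -0.49 over the mitochondrial members, 0.29 over the others and 0.07 over all genes. Within a library, where scaling cancels, the mean log2 CPM of the mitochondrial members exceeded that of the others by 0.84, 1.07, 1.31 and 0.75 in controls and by 0.12, 0.24, 0.39 and 0.18 in knockouts. The excess was smaller in every knockout than in any control, 0.99 ± 0.25 (SD, n = 4) against 0.23 ± 0.12 (SD, n = 4), a difference of -0.76. For single genes, the CPM values of the groups did not overlap in 53.4% of all genes. No test was made on this score over chosen genes. The study had already reported Sod2, Prdx3, Prdx5 and glutaredoxins as lower in these libraries, so the direction of the split is not independent evidence. Gpx1 and Gpx4 also have mitochondrial forms, and counting them as mitochondrial left a difference of -0.23.

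Differences within pairs of members also shifted between groups, though not every pair shares a compartment or a substrate. The pairs were chosen after the values were seen and are given as descriptions. Sod1 minus Sod2, on the log2 CPM scale, was -1.06 ± 0.17 in controls and 0.14 ± 0.08 in knockouts (SD, n = 4 each). Cat minus Sod2, a peroxide remover of peroxisomes against a peroxide producer of the matrix, was -1.38 ± 0.39 and 0.34 ± 0.28. Gpx4 minus Prdx3 was -0.11 ± 0.20 and 1.01 ± 0.10. These differences were higher in every knockout than in any control, beside 53.4% of all genes whose own CPM values did not overlap. Glrx minus Glrx2 went the opposite way, from -0.96 ± 0.12 to -1.49 ± 0.24, with no overlap, since Glrx fell further than Glrx2.

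**Figure D4:**
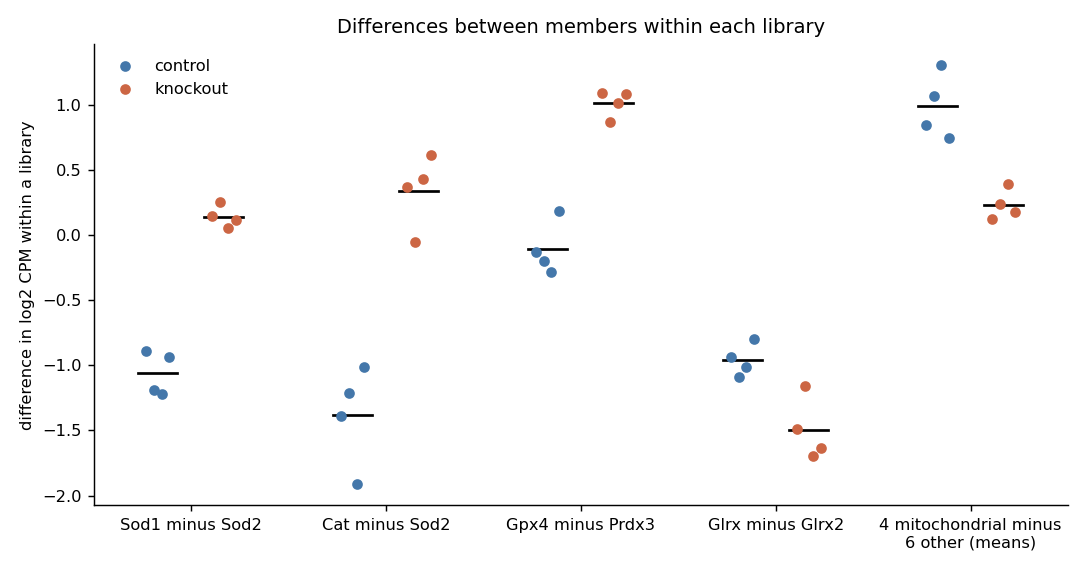
Difference in log2 CPM between members within each library (points; bars are group means), which does not depend on how libraries were scaled. CPM is not corrected for gene length, so the shift between groups can be read and the distance from 0 cannot; Cat minus Sod2 had means of -1.38 in controls and 0.34 in knockouts.

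Levels were compared between genes per length, in the deposited FPKM values. These are divided by gene length and also carry size factors of the authors that raise the controls and lower the knockouts relative to plain library totals, so the order within a group is free of that scaling and levels between groups are not. In controls Sod1 was highest at 237.6 ± 23.7 FPKM, followed by Prdx5 at 176.4 ± 13.5, Prdx3 at 128.6 ± 6.31, Gpx4 at 112.7 ± 11.1, Sod2 at 83.7 ± 5.09, Gpx1 at 57.6 ± 9.74, Cat at 48.9 ± 10.2, Glrx at 14.9 ± 0.66, Glrx2 at 10.3 ± 0.43 and Sod3 at 9.86 ± 2.99 (SD, n = 4). The ranges of neighbours overlapped for Prdx3 and Gpx4, for Gpx1 and Cat, and for Glrx2 and Sod3. In knockouts the order was Sod1 at 243.8 ± 20.8 FPKM, Gpx4 at 194.5 ± 27.2, Prdx5 at 130.2 ± 16.6, Prdx3 at 101.6 ± 8.43, Cat at 72.2 ± 14.5, Gpx1 at 61.4 ± 5.77, Sod2 at 37.4 ± 2.78, Sod3 at 13.0 ± 4.79, Glrx2 at 6.67 ± 0.56 and Glrx at 6.64 ± 0.94 (SD, n = 4). Gpx4 thus moved from the fourth place to the second, and Sod2 from the fifth to the seventh, below Cat and Gpx1. Cat and Gpx1, and the 3 lowest members, were not ordered beyond their ranges.

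Among the dismutases, Sod2 made up 23.2% to 27.7% of their summed FPKM in controls and 11.8% to 13.7% in knockouts, with means of 25.4% ± 2.36 and 12.8% ± 0.79 (SD, n = 4 each). The Sod1 share was 71.7% ± 1.87 in controls and 82.9% ± 0.73 in knockouts, without overlap. Sod3 held 2.97% ± 0.88 and 4.33% ± 1.32, and its ranges overlapped. The Sod1 share was higher in knockouts although, with TMM scaling, its own level did not differ beyond the replicate spread.

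Genes around the members were taken from 12 lists, with 95 of 101 genes in the table. Of these, 31 were higher and 25 lower, beside 23.6% and 21.1% of all genes, and their median log2 change was 0.02. Of the 4 other peroxiredoxins, 2 were higher and none lower: Prdx4 of the endoplasmic reticulum (log2 change 0.87, SE 0.13, edgeR adjusted p = 0.000273) and Prdx6 of the cytosol (0.60, SE 0.09, edgeR adjusted p = 0.000257). Of the other glutathione peroxidases 3 of 6 were in the table and 2 were higher, namely the secreted Gpx3 (1.71, SE 0.22, edgeR adjusted p = 8.46e-05) and Gpx8 (1.09, SE 0.27, edgeR adjusted p = 0.0060). Gpx3 was 135.9 to 152.8 CPM in controls and 296.1 to 659.7 CPM in knockouts, whereas Gpx8 overlapped between groups and lost its call on leaving out any library but control replicate 4 and knockout replicate 3 (edgeR adjusted p up to 0.0188). The 2 other glutaredoxins in the list, Glrx3 and Glrx5, did not pass (0.06 and -0.29, edgeR adjusted p = 0.51 and 0.0131).

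The reducing systems that recharge these enzymes were read beside the 23.6% of all genes that were higher and the 21.1% that were lower. Of 9 thioredoxin system genes, 4 were higher, 1 was lower and 4 did not pass: sulfiredoxin Srxn1, which repairs overoxidized peroxiredoxins, had a log2 change of 1.76, Txn1, the cytosolic thioredoxin, 0.74, and nucleoredoxin Nxn -0.65 (0.01 with library totals alone). Of 6 genes of glutathione synthesis, reduction and mitochondrial import, 5 were higher and none lower, led by glutathione synthetase Gss at 1.04 and the mitochondrial glutathione carrier Slc25a39 at 0.96. Of 8 genes that supply NADPH, 5 were higher and 1 lower. Pgd of the pentose phosphate pathway had a log2 change of 2.23, the mitochondrial transhydrogenase Nnt 1.79, and the mitochondrial malic enzyme Me3 -1.14. Nnt went from 65.4 to 87.5 CPM in controls to 197.0 to 301.3 CPM in knockouts, opposite to the mitochondrial members.

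Lists of cofactor supply and of peroxisomal companions were read beside the 23.6% of all genes that were higher and the 21.1% that were lower. Of 4 genes of copper delivery, 2 were higher: Ccs, the chaperone that loads copper into SOD1, at 0.53, and the copper pump Atp7a at 0.53. Of 7 genes of selenocysteine insertion, on which Gpx1 and Gpx4 depend, 3 were higher and 1 lower, with Trnau1ap at 1.48, Eefsec, the elongation factor for selenocysteine, at 0.55, and Pstk at -0.59 (0.08 with library totals alone). Of 11 peroxisomal companions of Cat, 2 were higher and 1 lower: the import factors Pex13 at 0.56 and Pex14 at 0.42, and Hsd17b4 of peroxisomal fatty acid oxidation at -0.48 (0.19 with library totals alone).

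Among 14 of 17 listed sources of superoxide and peroxide, 5 were higher and 1 lower, beside 23.6% and 21.1% of all genes. Ero1l, the oxidase of the endoplasmic reticulum, had a log2 change of 2.33, Cybb, the phagocyte NADPH oxidase subunit, 1.44, and the outer-membrane amine oxidase Maob -1.42. With library totals alone Maob was at -0.75 and did not pass. Cybb was 2.505 to 4.93 CPM in controls and 6.34 to 11.8 CPM in knockouts, and the macrophage marker Cd68 (means 3.44 and 20.8 CPM, log2 change 2.62, edgeR adjusted p = 2.40e-05) and the neutrophil marker S100a8 (means 0.37 and 22.8 CPM) were also higher in every knockout than in any control. The other 9 macrophage and 2 neutrophil markers did not pass, and only 3 of 5 listed neutrophil genes were in the table. The part of such cells in the Cybb value was not tested. Of 10 regulators, 1 was higher and 4 lower, beside the same shares of all genes. Nfe2l2, which encodes NRF2, was at 0.85, Esrra at -0.85 and the mitochondrial deacetylase Sirt3 at -0.65. With library totals alone Esrra was at -0.18 and Sirt3 at 0.01, and neither passed.

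As a measure of other matrix enzymes, 16 of 17 TCA cycle genes were lower with TMM scaling, beside 21.1% of all genes. None was higher, and the median log2 change was -0.65, with the largest falls in Idh3a (-1.19) and Suclg1 (-1.10). With library totals alone, Idh3a was at -0.52 and Suclg1 at -0.44. The median gene moved up by 0.67 there, and the median of the TCA list was not recomputed. Sod2 at -1.12 lay within the range of that list, which ran from -1.19 to 0.12, as did Glrx2, Prdx5 and Prdx3. The 4 mitochondrial members were called in the same direction as these TCA cycle genes, and their median of -0.49 was the less negative; that difference was not tested.

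**Figure D5:**
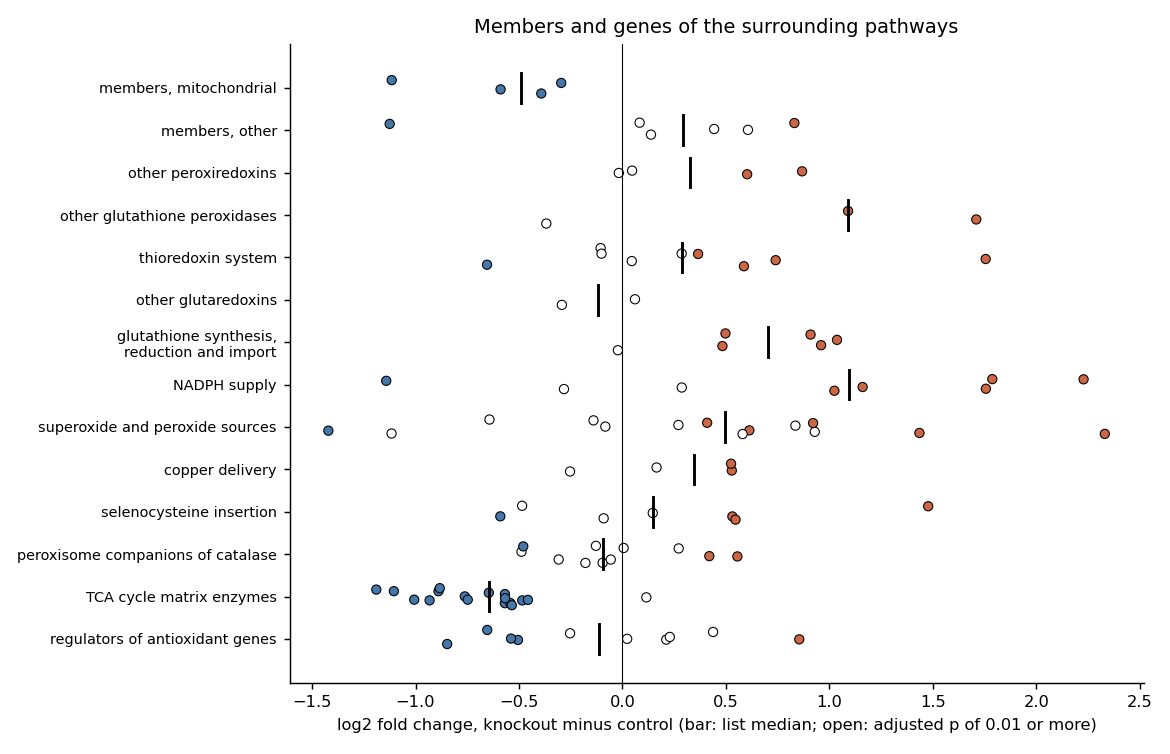
Log2 fold change (knockout minus control) of the members and of the genes in 12 surrounding lists; filled points passed an edgeR adjusted p under 0.01 (orange higher, blue lower), open points did not, the black bar is the list median, and the vertical scatter has no meaning. TCA cycle genes (16 of 17 lower) and the 4 mitochondrial members lay on the lower side, while 5 of 8 NADPH genes and 5 of 6 glutathione genes were higher. Of all genes, 21.1% were lower and 23.6% were higher. With library totals alone the median gene moved up by 0.67 and Prdx3, Prdx5 and Glrx2 changed sign.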

How the data were processed

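The authors deposited raw read counts per gene and FPKM values for 8 polyA libraries sequenced as paired 75-base reads. Per the study's methods and the submitters' processing notes, reads were made with bcl2fastq 2.20.0.422, trimmed with cutadapt, aligned to GRCm38 with STAR 2.5.4b, and counted over exons with Rsubread 2.6.4. Duplicate, chimeric and multimapping reads and those with a mapping score under 10 were dropped, and genes under 50 reads in total were removed; the lowest total here was 51. The authors' columns of DESeq2 1.32.0 fold changes and p-values were not used. Groups and replicate numbers came from the labels. The raw counts were tested with edgeR 4.0.16 (R 4.3.3, quasi-likelihood, TMM, 14012 genes, adjusted p under 0.01). On simulated data with few changed genes, the procedure recovered 67.4% of log2 changes of size 1 and 89.5% of those of size 2. That simulation held no shift between groups like that of the TMM factors, so it does not bear on the choice of scaling. CPM values used TMM-scaled libraries, and log2 CPM a prior count of 2. Alternatives were other scalings, filterByExpr, DESeq2 1.42.0, a threshold of 0.05, a replicate block, an adipocyte covariate, and each library left out. Levels between genes were compared in the deposited FPKM. No 2 libraries of a group agreed within counting noise (chi-square over its degrees of freedom, 16.8 to 42.5). The members and lists were chosen with earlier results of these data known. The text names all members, Grpel1, and up to 2 called genes at each end of every list; Glrx3, Glrx5, Scaf4, Gpx4-ps2, Cd68, S100a8 and the genes under other observations were chosen after their values were seen. Promoter letters are from RefSeq, and protein sequences are not used here. The labels name TRIzol and the study's methods another kit for RNA extraction.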

Additional observations from a re-analysis of the deposited data

Results flagged for a closer look

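In 7 of 94 groups of 4 libraries examined for the named genes, a single library stood apart from the other three by more than the 95% limit for gaps of this kind, which chance alone passes in about 1 of 20 groups. Of the members, Sod2 was 164 CPM in knockout replicate 1 against 139 to 142 CPM in the other knockouts, and Gpx4 was 197 CPM in control replicate 4 against 160 to 164 CPM in the other controls. Both stayed on their group's side of the comparison, and leaving these libraries out left both calls in place.

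Among the surrounding genes, Prdx4 was 10.5 CPM in knockout replicate 2 (others 8.55 to 8.79), Srxn1 was 80.2 CPM in the same library (others 127 to 136), Gpx3 was 153 CPM in control replicate 1 (others 136 to 139), Nxn was 33.7 CPM in knockout replicate 4 (others 36.5 to 37.0), and Atp7a was 16.01 CPM in knockout replicate 1 (others 14.7 to 14.9). None of these values crossed into the range of the other group.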

How the results depend on the processing

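Over 16 alternatives, Sod2, Glrx and Gpx4 kept their direction and their call. Scaling by library totals alone turned Prdx3 (0.37), Prdx5 (0.28), Glrx2 (0.077), Nxn (0.015), Pstk (0.078), Hsd17b4 (0.19) and Sirt3 (0.0073) to positive log2 changes. It gave 5 members higher (Prdx3, Sod1, Cat, Gpx1 and Gpx4) and 2 lower (Sod2 and Glrx). It called 8498 genes higher and 873 lower (90.7% of calls higher, against 52.7% with TMM and 48.3% with DESeq2). With library totals alone Maob (-0.75) and Esrra (-0.18) stayed negative but no longer passed (edgeR adjusted p = 0.0233 and 0.114). Members called higher numbered 2 with DESeq2 and 2 at an adjusted p under 0.05, Cat being added each time, and 1 to 2 with a library left out. Members called lower numbered 3 with the adipocyte covariate (Prdx3 and Prdx5 lost) and 3 to 5 with a library left out; 3 remained without control replicate 2, control replicate 3 or knockout replicate 4. Prdx5 also missed the threshold with upper-quartile factors (adjusted p = 0.0154). The mitochondrial minus other difference was -0.84 to -0.65 with a library left out, and -0.23 with Gpx1 and Gpx4 counted as mitochondrial. All genes called numbered 5196 to 5867 with a library left out. The labels give no shared source for same-numbered libraries, and the correlations of their deviations (0.118, 0.0031, 0.42 and 0.138) were not all over 0.1, so they were not treated as pairs, although 6 of 8 libraries were closest to their own number, a hint of pairing from the data; the replicate block gave 6123 calls and 4 members lower, with Prdx3 at an adjusted p of 0.0118. The smallest member counts were 167 reads (Sod3) and 195 reads (Glrx); the largest standard errors were those of Sod3 (0.31) and Cat (0.18), whose replicates spread most.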

Other observations

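Some genes that feed the mitochondrial members, picked after their values were seen, did not share the lower side. Thioredoxin 2 (Txn2), which reduces PRDX3 and PRDX5 in the matrix, had a log2 change of 0.05 (SE 0.10, edgeR adjusted p = 0.70), and its reductase Txnrd2 had -0.11 (SE 0.11, edgeR adjusted p = 0.44). Idh2, a matrix source of NADPH, rose by 1.16 (SE 0.19, edgeR adjusted p = 0.000498), and glutathione reductase Gsr rose by 0.91 (SE 0.14, edgeR adjusted p = 0.000307). Others of the NADPH list lay on the lower side, Me3 at -1.14 (SE 0.10, edgeR adjusted p = 6.21e-06) and Glud1 at -0.28 (SE 0.08, edgeR adjusted p = 0.0133, not past the threshold). Apart from these suppliers, the cytosolic peroxiredoxins Prdx1 and Prdx2 had 0.05 and -0.02, with edgeR adjusted p of 0.64 and 0.84.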
